A study of Mus musculus with 18 samples.

Results

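Myc and 49 factors that build ribosomes were followed through bulk RNA-seq of mouse CD4 T cells with and without Id3. The 50 genes were taken by name from the deposited expression table. All 50 were found there, of 12547 genes in all. The libraries came from Id3-KO and WT naive CD4 T cells cultured toward the Th1 type with beads against CD3 and CD28, the cytokines IL2 and IL12, and a blocking antibody to IL4. Id3 is an inhibitor protein that binds E proteins and keeps them from DNA. There were 6 groups of 3 libraries: KO cells of sets 3, 5 and 6, and WT cells of sets 3, 5 and 6. All groups had the same culture protocol in the labels, which give neither the Id3 allele, nor the age of the mice, nor what the sets are. The names of the authors' contrasts join set 3 to the number 24 and sets 5 and 6 to the number 96, with no unit. It is not stated whether the 3 libraries of a group are from separate animals, and the tests therefore cover the spread among libraries, which may be technical.

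Ribosome assembly starts in the nucleolus, where RNA polymerase I copies the ribosomal RNA genes into a long precursor. Small nucleolar RNPs guide chemical changes of that precursor: box C/D particles place 2′-O-methyl groups and box H/ACA particles turn uridine into pseudouridine. A series of processing factors then cuts and folds the precursor into the small and the large subunit. The transcription factor Myc binds DNA with its partner Max and is known for driving many of these genes when resting T cells are activated and begin to grow.

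Values are the deposited log2 expression values, and a difference is a difference of log2 group means with its standard error (SE). Tests were made with limma in 1 model of all 18 libraries, with p-values adjusted by Benjamini-Hochberg over all 12547 genes and called under 0.05. Depth per library is not known from these values, and levels are not compared between genes, since the values are not per length. The authors' values were equalized within each group of 3 but not between groups. The median of all genes was 9.18 in set 3, 9.57 in set 5 and 9.66 in set 6 for KO cells, and 9.21, 9.18 and 9.25 in the same order for WT cells. A KO minus WT difference in sets 5 and 6 therefore depends on the scale: the median over all genes was 0.39 in set 5 and 0.42 in set 6, and −0.07 in set 3. Results are given on the deposited scale, with the centred scale (each library minus its own median) beside them.

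Id3 itself followed the labels: no KO library exceeded 5.63 and no WT library was under 8.85. The first principal component of all libraries held 54.1% of the variance and the second 19.7%. The places of the groups on them are not given here. Markers of other cells differed between the genotypes in set 3: of those measured, 6 of 8 B-cell, 6 of 6 granulocyte and mast-cell, 3 of 5 erythroid, 1 of 6 myeloid (Cd68) and 2 of 7 CD8 and NK-type markers (Klrk1 and Zbtb16) were higher in KO libraries. These counts are limma calls at adjusted p under 0.05, where 6.92% of all genes were higher. Whether the marker RNA came from other cells was not tested. Summed granulocyte and mast-cell markers ranged from 8.96 to 9.65 on the log2 scale in KO libraries of set 3, against 4.19 to 5.77 in WT libraries. In set 5 that sum was 4.21 to 5.46 in KO and 4.03 to 5.03 in WT libraries. Among the T-cell markers, Cd3d, Cd3g, Cd247, Cd4 and Cd28 were lower in KO libraries of set 3, with differences of −0.641 to −0.295. Each passed limma at adjusted p under 0.05, where 4.46% of all genes were lower, and each passed on the centred scale too. Thy1 was higher, by 0.998 (limma adjusted p = 0.00278), and the other T-cell markers did not pass. In bulk samples, fewer cells of a type and less RNA per cell cannot be told apart.

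Promoter sequences bear on these genes because Myc with Max binds the E box CACGTG, while E proteins bind the wider CANNTG family. RefSeq start sites (GRCm38.p6) were available for 43 of the 50 genes, 47 starts in all, each with 250 bases before and 50 bases after the start. CACGTG, which reads the same on both strands, was present at 10 of the 47 starts (21.3%), against 2349 of 32851 starts of all genes (7.15%). Counted by gene over the genes tested here, it was 10 of 43 members (23.3%), against 1164 of 9986 genes with a start site (11.7%). CAGCTG, also the same on both strands, was at 14.9% of the starts, against 16.3% of all. CAGGTG or its reverse complement CACCTG was at 0 of 47, against 20.2% of all. CANNTG, which includes all of these, was at 66% of the starts, against 72.3%. The G and C content was 59% for the 47 starts and 53.8% for all, and its part in these shares was not tested. The 10 genes with CACGTG are shown as 30-base windows, 5′ to 3′ on the gene's strand, with the motif in capitals, since these letters are the site that Myc with Max is known to bind. In 8 of the 10 the motif lies after the start site.
Mybbp1a (chr11:72441347-72441376, plus strand): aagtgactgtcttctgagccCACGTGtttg
Utp4 (chr8:106893643-106893672, plus strand): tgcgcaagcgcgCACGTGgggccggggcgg
Utp20 (chr10:88826765-88826794, minus strand): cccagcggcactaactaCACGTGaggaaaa
Wdr43 (chr17:71616220-71616249, plus strand): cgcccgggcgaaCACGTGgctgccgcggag
Imp4 (chr1:34439696-34439725, plus strand): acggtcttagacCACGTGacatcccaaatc
Tsr1 (chr11:74898092-74898121, plus strand): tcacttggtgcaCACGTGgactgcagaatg
Pno1 (chr11:17211540-17211569, minus strand): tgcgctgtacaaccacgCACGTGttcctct
Pes1 (chr11:3963965-3963994, plus strand): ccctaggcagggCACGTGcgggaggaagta
Nop2 (chr6:125131811-125131840, plus strand): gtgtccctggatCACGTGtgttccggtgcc
Grwd1 (chr7:45830740-45830769, minus strand): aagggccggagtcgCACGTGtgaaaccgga

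The genes were lower in set 5 than in set 3 in both genotypes. In KO cells 49 of the 50 fell and none rose, where 23.4% of all genes fell and 49.8% rose. The median change of the 50 was −1.57, against 0.38 for all genes, and the members ranged from −2.99 to 0.04. In WT cells all 50 fell, where 38.3% of all genes fell and 29.3% rose. Their median was −1.62, against −0.12 for all genes, and the range was −2.78 to −0.90. After centring all 50 fell in both genotypes, where 35.7% of all genes fell and 35.6% rose in KO cells and 36.8% fell and 30.5% rose in WT cells. No count changed when any 1 library was left out.

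Myc had 11.80, 12.46 and 11.66 in KO cells of set 5, against 13.005, 13.21 and 13.47 in KO cells of set 3. The ranges did not overlap, and the difference was −1.26 (SE 0.20, limma adjusted p = 2.99e-05), a fold of 0.419. WT cells gave 12.17, 12.64 and 12.55 in set 5, against 13.39, 13.32 and 13.75 in set 3, again without overlap. The difference was −1.03 (SE 0.20, limma adjusted p = 0.000253), a fold of 0.488.

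Myc was among the shallower falls: 33 of the other 49 genes had a lower difference in KO cells and 43 of 49 in WT cells. Polr1b, the second largest subunit of RNA polymerase I, had 8.72, 9.28 and 8.44 in KO cells of set 5, against 11.70, 11.98 and 11.74 in KO cells of set 3. Its fold was 0.125 in KO cells (−2.99, SE 0.20, limma adjusted p = 1.37e-09) and 0.163 in WT cells (−2.62, SE 0.20, limma adjusted p = 1.09e-08). Rrp12, which helps to mature and export pre-ribosomes, had 8.45, 8.56 and 8.20 in KO cells of set 5, against 11.15, 11.33 and 10.99 in set 3. WT cells had 8.44, 8.45 and 8.36 in set 5, against 11.21, 11.36 and 11.02 in set 3, so the Rrp12 values of the genotypes lay close together in both sets. The fold was 0.148 in KO and 0.146 in WT cells. Utp20, a large scaffold of the small-subunit processome, was among the deepest falls of WT cells: 8.88, 9.01 and 8.70 in set 5, against 11.52, 11.59 and 11.24 in set 3, a fold of 0.166. Wdr12 of the PeBoW complex, which acts on the large subunit, had a fold of 0.211 in KO and 0.189 in WT cells. Grwd1, a WD40 protein of large-subunit assembly, had a fold of 0.224 in WT cells.

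By role, the deepest median change in KO cells was that of the box H/ACA core, −2.17, followed by −1.71 for the box C/D core and −1.63 for the RNA polymerase I subunits. Large-subunit factors had a median of −1.50, nucleolar chaperones and regulators −1.47 and small-subunit factors −1.26. In WT cells the role medians lay within −1.79 and −1.53. H/ACA was again the lowest there, with −1.79, and C/D the highest, with −1.53.

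The exception was Nop56, a scaffold protein of the box C/D particle. It had 14.98, 14.99 and 15.09 in KO cells of set 5, against 14.93, 15.07 and 14.95 in KO cells of set 3, ranges that overlapped. The difference was 0.04 (SE 0.10, limma adjusted p = 0.725), or −0.34 on the centred scale, where it passed the test (limma adjusted p = 0.00448). In WT cells Nop56 fell, to 14.18, 14.17 and 14.03 in set 5, against 15.11, 15.09 and 14.89 in set 3 (−0.90, SE 0.10, limma adjusted p = 4.61e-07). Its partners in the particle, the methyltransferase Fbl and the second scaffold Nop58, fell in both genotypes.

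**Figure D1:**
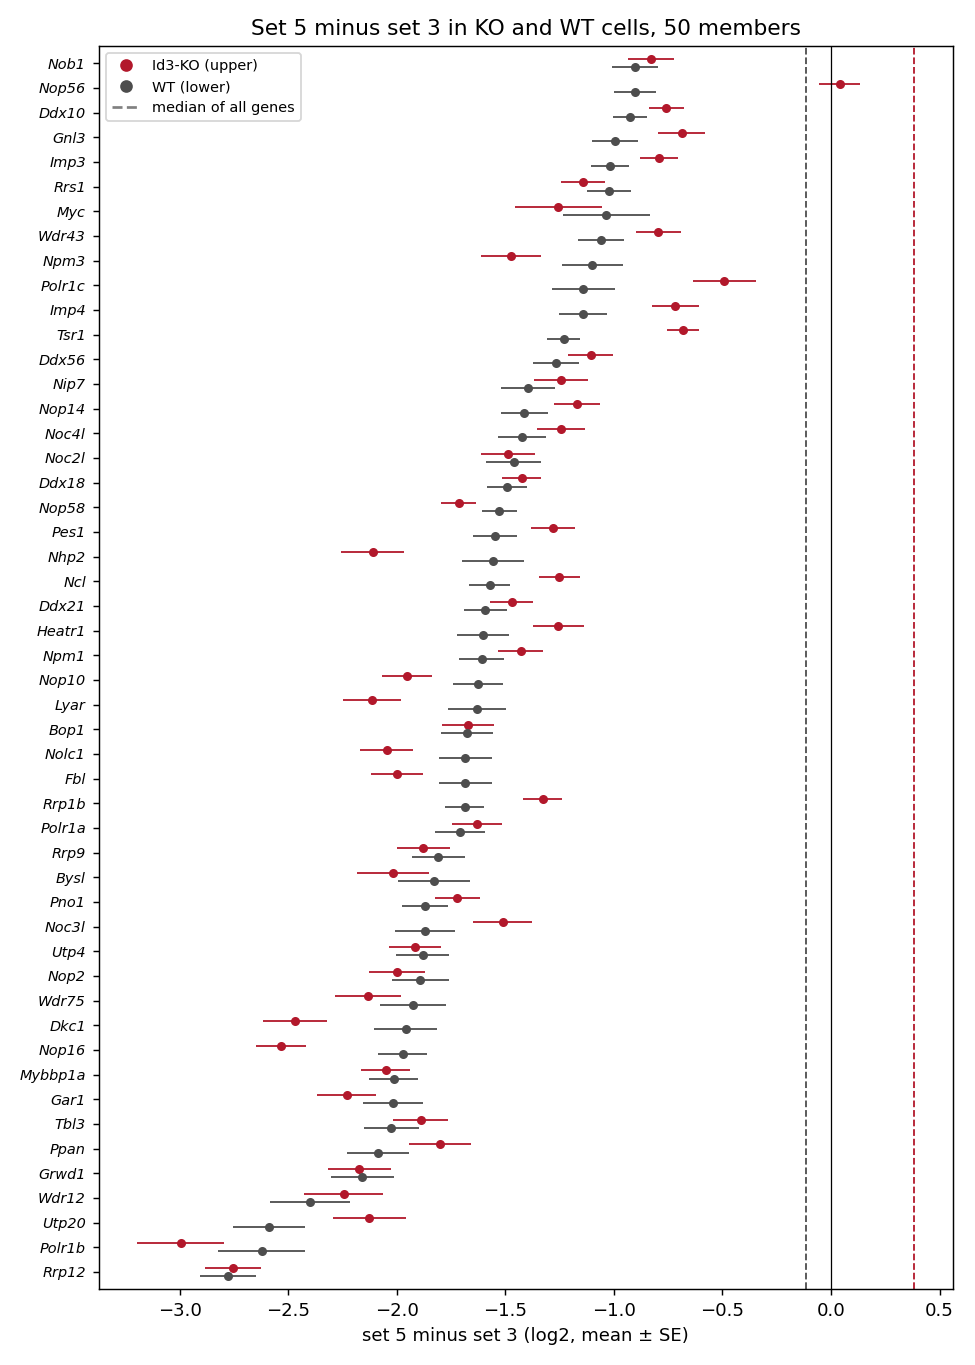
Difference of set 5 minus set 3 (log2, x axis) for each of the 50 genes, with KO cells as the upper and WT cells as the lower point of each row. Points are differences of 3 libraries each with SE bars, and dashed lines mark the median of all genes (0.38 in KO, −0.12 in WT cells). All points are drawn filled, whatever their adjusted p. All points lie left of 0 except Nop56 in KO cells, at 0.04.

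Markers of other cells moved with the same comparison. Erythroid markers fell in KO cells, 5 of 5, with a median of −8.00, and 3 of 5 fell in WT cells, with a median of −3.00. Granulocyte and mast-cell markers fell in KO cells, 6 of 6, and 0 of 6 fell in WT cells. CD8 and NK-type markers fell in 6 of 7 in KO and 7 of 7 in WT cells, B-cell markers in 5 of 8 in KO and 3 of 8 in WT cells, and myeloid markers in 3 of 6 in both. T-cell markers rose for 10 of 11 in KO cells, while in WT cells 7 rose and 3 fell. Of all genes, 23.4% fell and 49.8% rose in KO cells, and 38.3% fell and 29.3% rose in WT cells. The summed T-cell level was 17.51 to 17.60 in set 5 and 16.07 to 16.09 in set 3 for KO libraries, and 17.00 to 17.07 and 16.20 to 16.32 for WT libraries. The part of these cells in the fall of the ribosome genes was not tested.

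In set 3 none of the 50 genes passed the test between KO and WT cells, where 6.92% of all genes were higher and 4.46% lower in KO cells. None of the 50 reached an unadjusted p of 0.05 by limma, and the smallest adjusted p was 0.239, for the helicase Ddx56. The differences were small and mostly of 1 sign: 48 of 50 were negative, with a median of −0.13 (all genes −0.07), and −0.11 on the centred scale, where again none passed (7.29% of all genes higher and 3.28% lower). Myc had 13.005, 13.21 and 13.47 in KO libraries, against 13.39, 13.32 and 13.75 in WT libraries. The groups overlapped, and the difference of −0.26 (SE 0.20, limma adjusted p = 0.425) had a 95% interval of −0.70 to 0.18. Nop10, a small subunit of the H/ACA particle, was the single gene of the 50 whose groups did not overlap: 12.67, 12.76 and 12.67 in KO, against 12.85, 12.82 and 12.83 in WT libraries. The share of all genes without overlap was not counted, so this does not set Nop10 apart. Replicate 3 had the lowest value of its group for 41 of the 50 genes in KO and 48 of the 50 in WT cells, so most of the genes moved together between libraries. The same count was not made over all genes.

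In set 5 the genes divided. Nop56 and 3 others rose in KO cells and 12 fell, where 50.1% of all genes rose and 8.08% fell. The median of the 50 was −0.04, against 0.39 for all genes. After centring 1 rose and 35 fell, where 24.9% and 24.7% of all genes did, and the median was −0.43. The H/ACA core, Myc, Lyar and Nop16 were among the genes lower on both scales, and Nop56 was the only member higher on both.

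All 4 core proteins of the box H/ACA particle fell in KO cells of set 5, where 8.08% of all genes fell. Dkc1, the pseudouridine synthase dyskerin, had 10.86, 11.11 and 10.51 in KO libraries, against 11.60, 11.54 and 11.38 in WT libraries. Its difference was −0.68 (SE 0.15, limma adjusted p = 0.000802), a fold of 0.625. Nhp2, an RNA-binding core protein, had 11.36, 11.63 and 11.12 in KO libraries, against 12.21, 12.06 and 11.95 in WT libraries. This was the largest fall of the 50 (−0.70, SE 0.14, limma adjusted p = 0.000551), a fold of 0.614, and 5.39% of all genes had a lower difference. Nop10 had 10.80, 10.92 and 10.52 in KO, against 11.35, 11.18 and 11.09 in WT libraries (−0.46, SE 0.12, limma adjusted p = 0.00283). Dkc1, Nhp2 and Nop10 did not overlap between the genotypes. The share of all genes without overlap was not counted in any comparison, so a lack of overlap does not set a gene apart. Gar1, the fourth core protein, did overlap: 11.65, 12.10 and 11.70 in KO, against 12.11, 12.38 and 11.98 in WT libraries (−0.34, SE 0.14, limma adjusted p = 0.0405). Its call was lost without KO replicates 1 or 3 or WT replicates 1 or 2, with adjusted p up to 0.188. The median of the 4 was −0.57, and −0.96 on the centred scale, where all 4 fell and 24.7% of all genes did.

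The box C/D core moved in opposite directions. Nop56 had 14.98, 14.99 and 15.09 in KO libraries of set 5, against 14.18, 14.17 and 14.03 in WT libraries. It was higher in KO cells in every library, by 0.89 (SE 0.10, limma adjusted p = 1e-06), a fold of 1.86, and by 0.51 on the centred scale (limma adjusted p = 0.000454). Fbl had 12.03, 12.37 and 11.84 in KO, against 12.54, 12.64 and 12.49 in WT libraries (−0.48, SE 0.12, limma adjusted p = 0.00279). Nop58 had 13.25, 13.46 and 13.20 in KO, against 13.70, 13.56 and 13.50 in WT libraries (−0.28, SE 0.08, limma adjusted p = 0.00714). Neither overlapped between the genotypes, a trait whose share over all genes was not counted.

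A difference of Nop56 to its partners within each library is the same on the deposited and the centred scale. It was chosen after the values were seen. Values were equalized separately in each group, which can shift genes of unlike level by unlike amounts, and the effect on this difference was not tested. Nop56 minus the mean of Fbl and Nop58 was 0.399, 0.414 and 0.488 in KO libraries of set 3, against 0.347, 0.376 and 0.334 in WT libraries. In set 5 it was 2.34, 2.08 and 2.57 in KO, against 1.06, 1.07 and 1.04 in WT libraries. In set 6 it was 1.51, 1.49 and 1.87 in KO, against 1.03, 0.953 and 0.929 in WT libraries. The KO values were above the WT values in each set, and the gap was widest in set 5.

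Among the RNA polymerase I subunits of set 5, Polr1b fell and Polr1c rose. Polr1b had 8.72, 9.28 and 8.44 in KO, against 9.68, 9.40 and 9.13 in WT libraries, groups that overlapped (−0.59, SE 0.20, limma adjusted p = 0.018). That call was lost without KO replicates 1 or 3 or WT replicate 1, with adjusted p from 0.0566 to 0.107. Polr1c, a subunit shared with RNA polymerase III, had 11.55, 11.40 and 11.21 in KO, against 10.99, 10.92 and 11.02 in WT libraries (0.41, SE 0.14, limma adjusted p = 0.0235). It was lost without KO replicates 1 or 2 or WT replicate 2, with adjusted p from 0.0514 to 0.10, and was 0.02 on the centred scale. Polr1a, the largest subunit, had 9.49, 9.66 and 9.30 in KO, against 9.59, 9.68 and 9.42 in WT libraries (−0.08, limma adjusted p = 0.562; −0.47 on the centred scale, adjusted p = 0.00315).

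Myc in set 5 had 11.80, 12.46 and 11.66 in KO, against 12.17, 12.64 and 12.55 in WT libraries, and KO replicate 2 lay within the WT range. The difference of −0.48 (SE 0.20, fold 0.716) was at the threshold, with a limma adjusted p of 0.04999. The call was lost without KO replicates 1 or 3 or WT replicates 2 or 3, with adjusted p from 0.127 to 0.217. On the centred scale it was −0.87 (limma adjusted p = 0.00203) and stayed under 0.05 without any 1 library, from 0.000184 to 0.0148. KO replicate 2 was the highest of its group for 41 of the 50 genes, and it also had the highest Id3 value of its group, 5.63. That count was not made over all genes, and a link to Id3 was not tested.

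Of the 8 nucleolar chaperones and regulators, 3 fell in set 5 and none rose, where 8.08% of all genes fell and 50.1% rose. Lyar, a zinc-finger protein of the nucleolus, had 10.76, 10.96 and 10.52 in KO, against 11.53, 11.41 and 11.16 in WT libraries (−0.62, SE 0.13, limma adjusted p = 0.000794), a fold of 0.650. Nolc1, a snoRNP chaperone, had 10.92, 11.41 and 11.04 in KO, against 11.62, 11.66 and 11.48 in WT libraries (−0.47, limma adjusted p = 0.00364). Npm3, a relative of nucleophosmin, had 12.17, 12.28 and 11.97 in KO, against 12.78, 12.63 and 12.38 in WT libraries (−0.46, limma adjusted p = 0.01). None of the 3 overlapped, though the share of all genes without overlap was not counted. The Npm3 call was lost without KO replicate 3 or WT replicate 1, with adjusted p up to 0.0557. The abundant Npm1 and Ncl did not pass: Npm1 (nucleophosmin) differed by 0.10 (limma adjusted p = 0.411) and Ncl (nucleolin) by 0.16 (limma adjusted p = 0.151).

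Most subunit factors did not pass on the deposited scale. Of 17 small-subunit factors 2 rose and none fell, and of 14 large-subunit factors 1 fell and none rose. Of all genes, 50.1% rose and 8.08% fell. After centring none rose, while 11 of the 17 and 9 of the 14 fell, where 24.9% of all genes rose and 24.7% fell. Nop16, which binds the large-subunit precursor, was the factor that fell on both: 9.62, 9.94 and 9.67 in KO, against 10.58, 10.37 and 10.28 in WT libraries (−0.67, SE 0.11, limma adjusted p = 0.000113), a fold of 0.630. Tsr1, a late small-subunit factor, had 11.33, 11.53 and 11.40 in KO, against 11.04, 11.07 and 10.90 in WT libraries (0.42, SE 0.08, limma adjusted p = 0.00019; 0.03 on the centred scale). Imp4, which pairs with the U3 snoRNP, had 11.09, 11.14 and 11.11 in KO, against 10.72, 10.89 and 10.81 in WT libraries (0.31, SE 0.11, limma adjusted p = 0.0228), but −0.08 on the centred scale (limma adjusted p = 0.569). Its call was lost without KO replicates 2 or 3 or WT replicate 1, with adjusted p from 0.0506 to 0.0833. Without KO replicate 2 the higher calls in set 5 numbered 2 instead of 4.

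**Figure D2:**
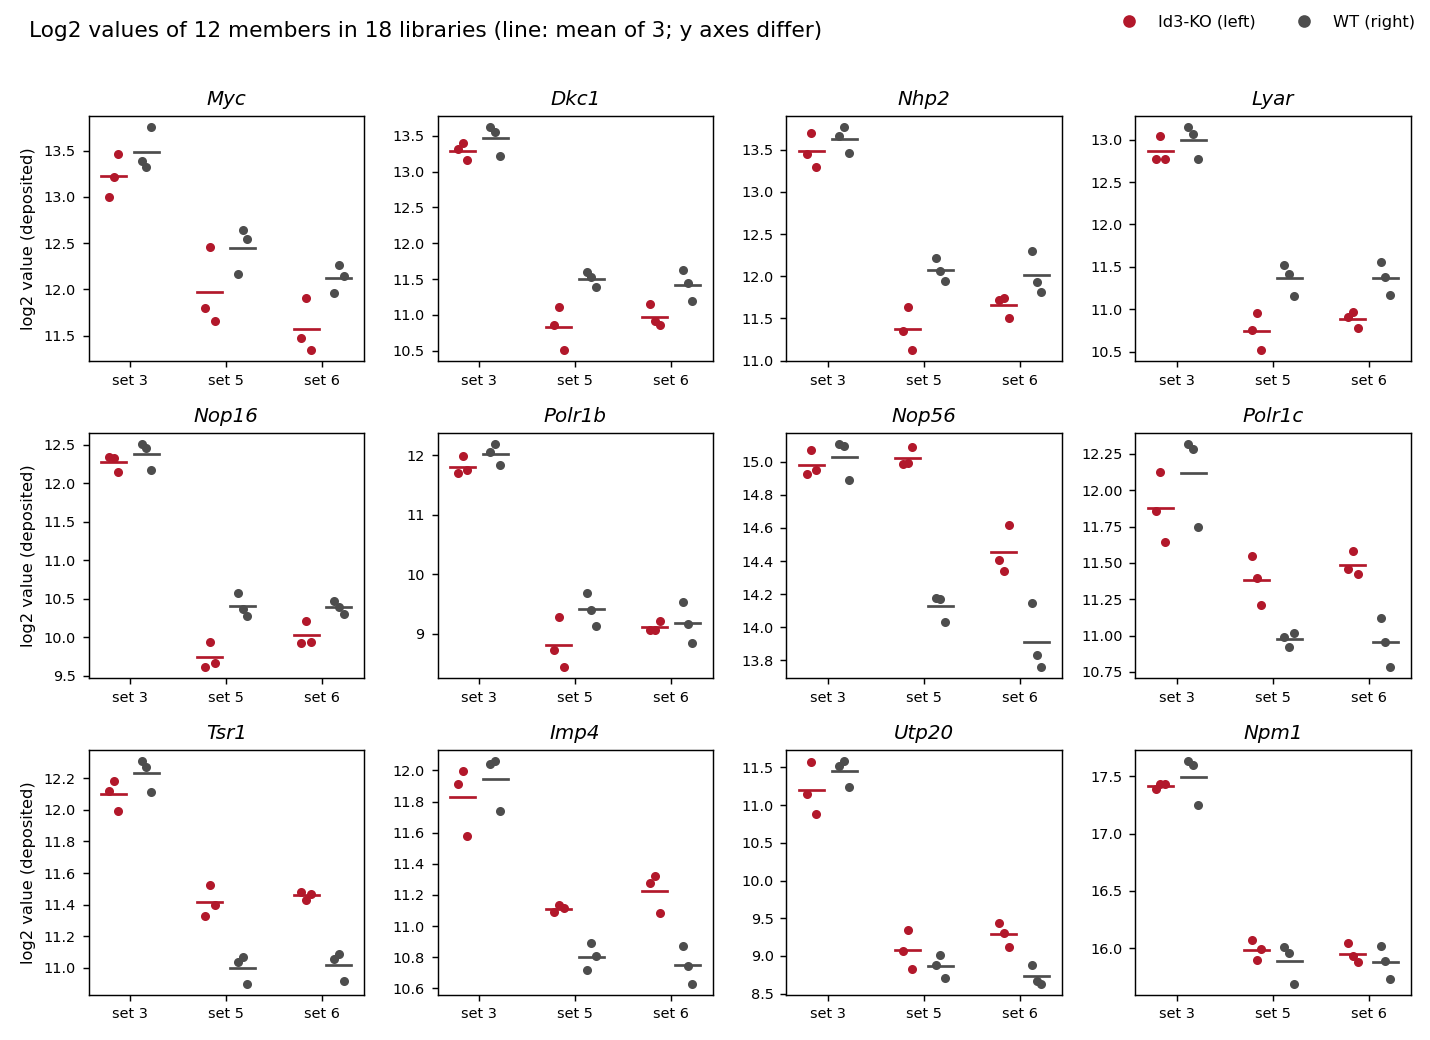
Deposited log2 values (y axes, which differ between panels) of 12 of the genes in all 18 libraries, with KO libraries left and WT libraries right in sets 3, 5 and 6. Points are libraries and lines are means of 3. Nop56 stays near 15 in KO cells of set 5 while WT cells lie near 14, and Dkc1, Nhp2, Lyar and Nop16 are lower in KO than in WT libraries of sets 5 and 6.

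Cell markers and mitochondrial transcripts were compared between the genotypes as well. In set 5, 10 of 11 T-cell markers were higher in KO cells (3 higher and 1 lower on the centred scale), and 6 of 13 mitochondrial transcripts were higher (3 lower on the centred scale). Of all genes, 50.1% were higher and 8.08% lower in KO cells of set 5 (24.9% and 24.7% centred). Apart from the T-cell markers, the shares of higher genes given here for set 5 were near or under that of all genes. Of the myeloid markers 2 of 6 were higher (Cd68 and Adgre1), with a summed level of 9.37 to 9.87 in KO and 7.36 to 7.73 in WT libraries. In set 6 the same 2 were higher, and the sum was 10.29 to 10.52 in KO and 8.48 to 9.38 in WT libraries. Of the CD8 and NK-type markers 4 of 7 were higher in set 5, with a sum of 9.48 to 10.09 in KO and 8.12 to 9.26 in WT libraries. The granulocyte and mast-cell genes Mcpt4, Tpsb2 and Fcer1a were at the lowest value of each library in both genotypes of set 5. The summed B-cell markers were 7.01 to 7.40 in KO and 5.63 to 5.94 in WT libraries of set 5, with 1 of 8 higher in KO cells, and Ebf1 was at the lowest value in WT libraries. The part of all these in the ribosome gene results was not tested.

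Set 6 gave more rises and fewer falls. In KO cells 13 of the 50 genes rose and 5 fell, where 53.9% of all genes rose and 4.59% fell, so the share of members that rose was below that of all genes. The median was 0.07, against 0.42 for all genes. After centring none rose and 25 fell, where 18.8% and 18.5% of all genes did, with a median of −0.34. The 13 rises had centred differences of −0.14 to 0.14, and none of them passed there.

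The 5 genes that fell in set 6 were Myc, Lyar, Dkc1, Nop16 and Nhp2, all of which fell in set 5 too. The libraries of the 2 sets are separate, but same-numbered ones deviate together within each genotype, so the sets are not independent. Myc had 11.48, 11.91 and 11.34 in KO libraries, against 11.96, 12.27 and 12.14 in WT libraries, with no overlap (−0.55, SE 0.20, limma adjusted p = 0.0279), a fold of 0.684. The call was lost without KO replicates 1 or 3 or WT replicates 2 or 3, with adjusted p from 0.0628 to 0.115. On the centred scale it was −0.96 (limma adjusted p = 0.00152), and from 0.000945 to 0.0106 without any 1 library. Dkc1 had 11.15, 10.92 and 10.86 in KO, against 11.62, 11.45 and 11.20 in WT libraries (−0.45, SE 0.15, limma adjusted p = 0.0152), and was lost without KO replicate 3 or WT replicate 1 (0.0591 and 0.0761). Nhp2 had 11.72, 11.74 and 11.51 in KO, against 12.31, 11.93 and 11.81 in WT libraries (−0.36, SE 0.14, limma adjusted p = 0.0415). This call was lost without any KO library or without WT replicates 1 or 2, with adjusted p from 0.0502 to 0.217. Lyar had 10.91, 10.97 and 10.78 in KO, against 11.55, 11.38 and 11.17 in WT libraries (−0.48, SE 0.13, limma adjusted p = 0.00537). Nop16 had 9.93, 10.21 and 9.93 in KO, against 10.47, 10.40 and 10.30 in WT libraries (−0.37, SE 0.11, limma adjusted p = 0.0118). Lyar and Nop16 kept their calls without any 1 library. The other H/ACA proteins did not pass on the deposited scale: Gar1 differed by −0.01 and Nop10 by −0.03, and by −0.42 and −0.44 on the centred scale, where both passed.

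Among the 13 that rose on the deposited scale in set 6, where 53.9% of all genes rose, 6 were small-subunit factors. Utp20 had 9.44, 9.30 and 9.11 in KO libraries, against 8.88, 8.67 and 8.63 in WT libraries (0.56, SE 0.17, limma adjusted p = 0.00908), a fold of 1.47. Imp4 had 11.28, 11.32 and 11.08 in KO, against 10.87, 10.74 and 10.63 in WT libraries (0.48, SE 0.11, limma adjusted p = 0.00137), and its partner Imp3 had 12.28, 12.42 and 12.23, against 11.995, 11.95 and 11.75 (0.41, limma adjusted p = 0.000835). Tsr1 had 11.48, 11.43 and 11.47 in KO, against 11.06, 11.09 and 10.91 in WT libraries (0.44, SE 0.08, limma adjusted p = 0.000124). Wdr43 and Noc4l of the small-subunit processome also rose, by 0.36 and 0.35 (limma adjusted p = 0.00825 and 0.012).

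The other rises of set 6 were spread over the roles. Nop56 had 14.40, 14.34 and 14.62 in KO, against 14.15, 13.83 and 13.76 in WT libraries (0.54, SE 0.10, limma adjusted p = 0.000161), a fold of 1.46, and 0.13 on the centred scale (limma adjusted p = 0.311). Polr1c had 11.46, 11.58 and 11.42 in KO, against 11.12, 10.96 and 10.78 in WT libraries (0.53, SE 0.14, limma adjusted p = 0.00491). Gnl3, the nucleolar GTPase nucleostemin, had 13.22, 13.35 and 13.51 in KO, against 13.07, 12.99 and 12.98 in WT libraries (0.35, limma adjusted p = 0.011). The large-subunit factors that rose were Noc3l, Nip7, Pes1 and Ddx18, by 0.27 to 0.39 (limma adjusted p = 0.0166 to 0.0437). Calls were lost without 1 library for Gnl3 (KO replicate 3), Noc4l (KO or WT replicate 3), Pes1 (WT replicate 3), Noc3l (KO replicates 1 or 3, WT replicate 3), Nip7 (KO replicates 1 or 2, WT replicates 2 or 3) and Ddx18 (KO replicate 1, WT replicate 3), with adjusted p up to 0.197. Without WT replicate 3 the rises in set 6 numbered 8, and the falls numbered 2 without KO replicate 3 and 3 without KO replicate 1, WT replicate 1 or WT replicate 2. WT replicate 3 was the lowest of its group for 44 of the 50 genes and WT replicate 1 the highest for 46, counts that were not made over all genes. T-cell markers were higher in KO cells for 10 of 11 and mitochondrial transcripts for 3 of 13 in set 6, where 53.9% of all genes were. The part of these markers and transcripts in the member differences of set 6 was not tested.

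**Figure D3:**
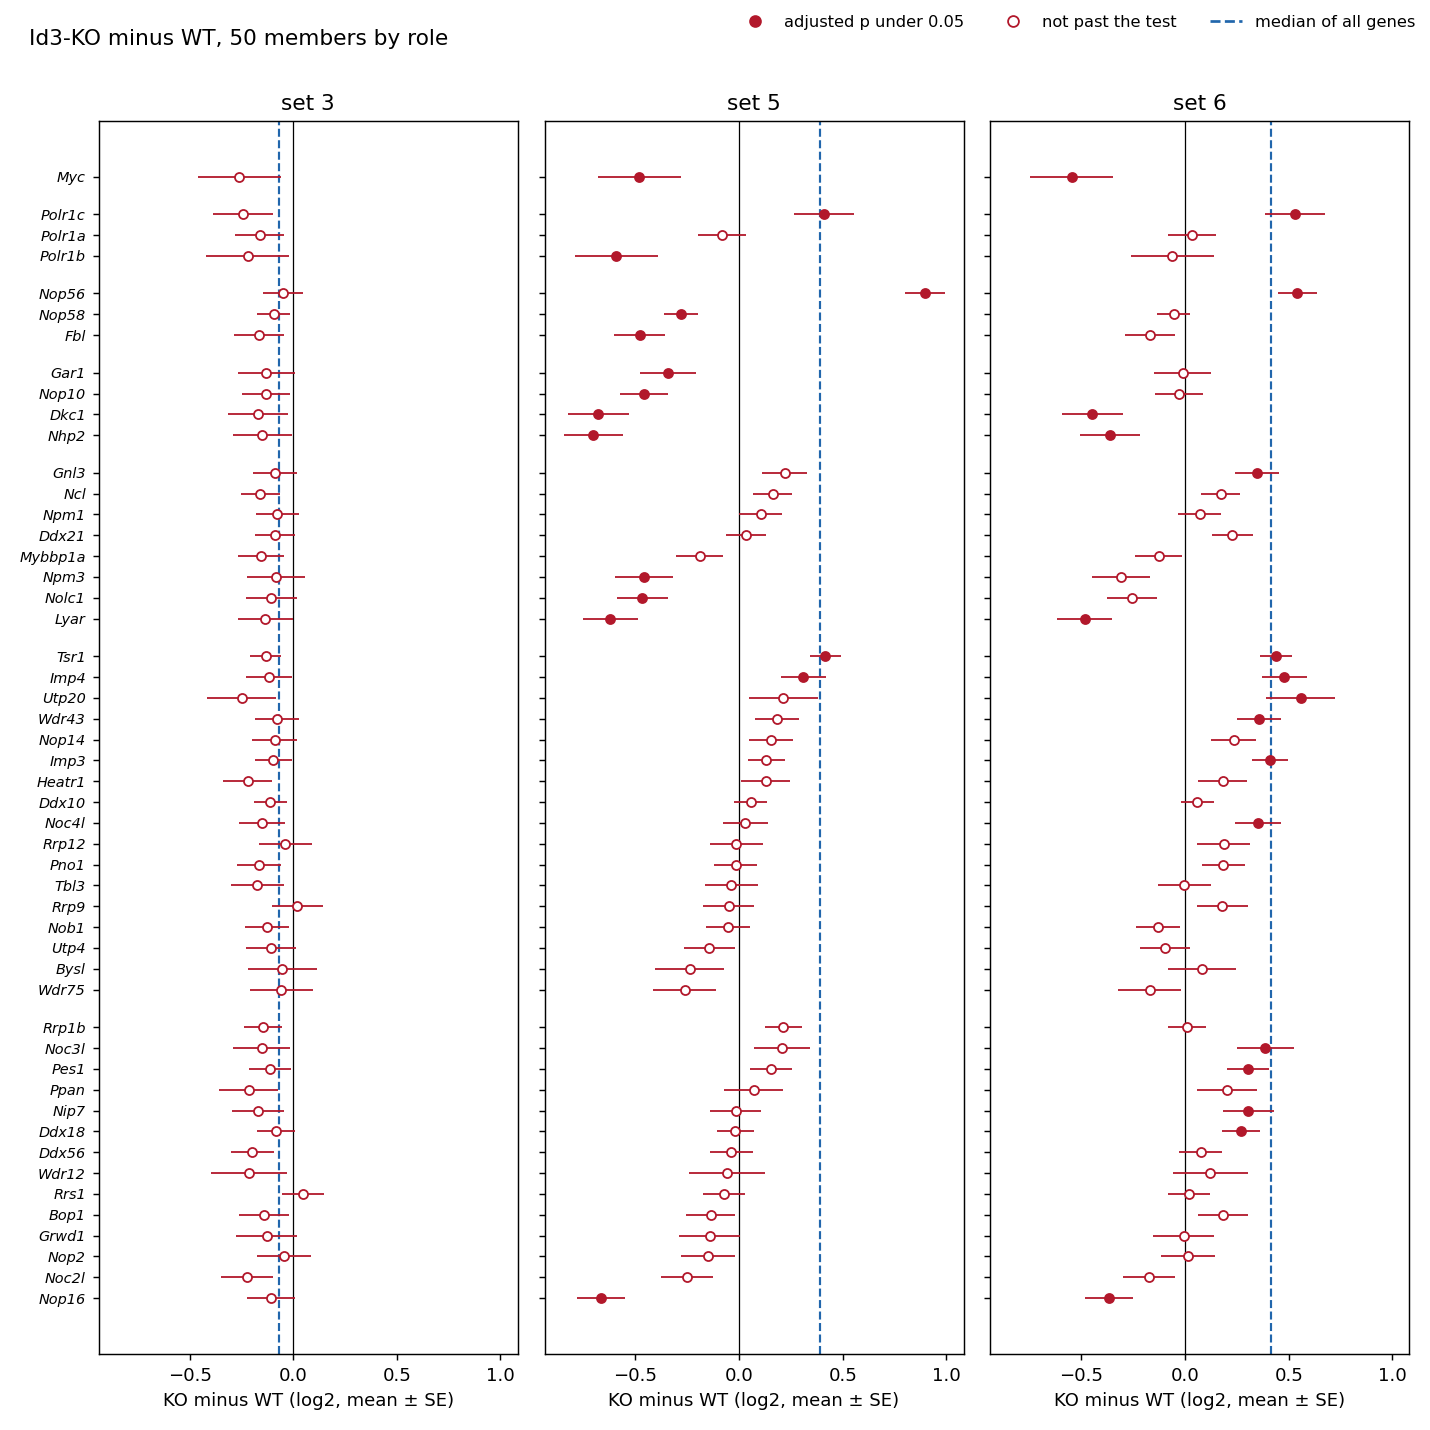
KO minus WT difference (log2, x axis) of the 50 genes in order of role, in sets 3, 5 and 6. Points are differences of 3 libraries each with SE bars, filled points passed limma at adjusted p under 0.05, and dashed lines mark the median of all genes (−0.07, 0.39 and 0.42). In sets 5 and 6 most points lie left of the dashed line, with Nop56 in set 5 at 0.89 to its right.

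On the deposited scale, 5 genes were lower in KO cells of both sets 5 and 6, and 4 were higher in both (Polr1c, Nop56, Imp4 and Tsr1). On the centred scale 24 were lower in both and none was higher in both. The share of all genes called in both sets was not counted, so these counts do not set the members apart. In the single sets 50.1% and 53.9% of all genes were higher on the deposited scale, and 8.08% and 4.59% lower. With centring 24.9% and 18.8% were higher, and 24.7% and 18.5% lower. The authors' deposited table, whose test asks for a minimum fold, calls fewer. It gives 1 member as higher in set 5 (34% of all genes) and 4 as lower (3.79%). These were Nop56, with the authors' adjusted p of 3.6e-05, and Nop16 (0.00555), Nhp2 (0.013), Dkc1 (0.0182) and Lyar (0.0243). In set 6 the authors' deposited table gives Nop56 (0.0179) and Tsr1 (0.0494) as higher, where 33.1% of all genes were, and no member as lower, where 2.07% were. In its joint contrast of sets 5 and 6 it gives the same 2 as higher (41.6% of all genes) and Lyar, Nop16, Dkc1 and Nhp2 as lower (3.92%). Myc does not pass in the authors' deposited table, with adjusted p of 0.277 in set 5 and 0.188 in set 6.

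The 5 members that the authors' deposited table calls in set 5 are shown with the 100 bases before their RefSeq start sites (GRCm38.p6, 5′ to 3′ on the gene's strand), with each CANNTG in capitals. In the model of all 18 libraries, the first 4 fell in sets 5 and 6, and Nop56 rose on the deposited scale.
Dkc1 (chrX:75095754-75095853, plus strand): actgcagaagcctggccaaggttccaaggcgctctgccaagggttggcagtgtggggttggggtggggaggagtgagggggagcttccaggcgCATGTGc
Nhp2 (chr11:51619673-51619772, plus strand): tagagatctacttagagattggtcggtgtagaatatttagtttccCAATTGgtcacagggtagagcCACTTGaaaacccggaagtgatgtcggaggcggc
Lyar (chr5:38220382-38220481, plus strand): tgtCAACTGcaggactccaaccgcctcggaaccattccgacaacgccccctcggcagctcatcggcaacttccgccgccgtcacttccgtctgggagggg
Nop16 (chr13:54590075-54590174, minus strand): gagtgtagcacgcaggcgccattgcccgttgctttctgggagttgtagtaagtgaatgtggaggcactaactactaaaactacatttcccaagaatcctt
Nop56 (chr2:130274312-130274411, plus strand): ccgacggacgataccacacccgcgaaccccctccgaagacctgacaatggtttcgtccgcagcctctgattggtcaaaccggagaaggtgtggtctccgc
None of these 5 stretches holds CACGTG, and none of the 5 genes is among the 10 with it in their 300-base windows. The stretches end before the start site, while 8 of those 10 motifs lie after it. On the deposited scale, CACGTG was in the 300-base windows of 2 of 4 members that rose in set 5 (Imp4 and Tsr1) and 0 of 10 that fell, and of 5 of 13 that rose in set 6 (Utp20, Wdr43, Imp4, Tsr1 and Pes1) and 0 of 4 that fell. With centred values only 1 member with a start site rose in set 5, without CACGTG, and none rose in set 6. Of the members that fell, 5 of 28 in set 5 had it (17.9%, Mybbp1a, Utp4, Pno1, Nop2 and Grwd1). In set 6, 4 of 20 that fell had it (20%, the same without Pno1). The share was 23.3% over all 43 members, and 35.7% in set 5 and 26.1% in set 6 among members not called. Over all genes tested the share with CACGTG was 12.5% of those that rose and 11.8% of those that fell in set 5 on the deposited scale (13% and 12% centred), and 13% and 9.77% in set 6 (13.8% and 11.2% centred). These counts are small, depend on the scale, and describe letters in a window, not binding.

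The KO minus WT difference itself was compared between sets by the interaction of genotype and set. From set 3 to set 5, 5 genes had a higher and 3 a lower KO effect, where 43.2% and 6.82% of all genes did. Nop56 changed most, by 0.94 (SE 0.14, limma adjusted p = 3.73e-05), followed by Polr1c with 0.65 (SE 0.20, adjusted p = 0.0147) and Tsr1 with 0.55 (SE 0.11, adjusted p = 0.000511). Imp4 gave 0.43 (adjusted p = 0.0306) and Rrp1b, a nucleolar factor of the large subunit, 0.36 (adjusted p = 0.0273). The lower ones were Nop16 with −0.56 (SE 0.16, adjusted p = 0.009), Nhp2 with −0.55 (SE 0.20, adjusted p = 0.033) and Lyar with −0.49 (SE 0.19, adjusted p = 0.0419). With centred values 1 was higher, Nop56, and 17 lower, where 18.7% and 18.5% of all genes were, and Imp4 was at 0.01 while Rrp1b turned to −0.0551. Myc gave −0.22 (SE 0.28, limma adjusted p = 0.542, 95% interval −0.84 to 0.40), so a change of its KO effect between sets 3 and 5 was not detectable. Nop56, Polr1c, Tsr1 and Nop16 kept their calls without any 1 of the 12 libraries, while Imp4 lost its call in 7 of these fits, Nhp2 and Lyar in 6 and Rrp1b in 5. The counts moved with single libraries: 10 were higher without KO set 3 replicate 2, 8 without WT set 3 replicate 3, and 3 without KO set 3 replicate 3, KO set 5 replicate 3, WT set 3 replicate 1 or WT set 5 replicate 1. Lower ones numbered 1 without KO set 3 replicate 2, KO set 5 replicates 1 or 3, WT set 3 replicate 3 or WT set 5 replicates 1 or 2, and 6 without KO set 5 replicate 2.

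From set 3 to set 6, 14 genes had a higher KO effect and none a lower one, where 46.2% and 4.11% of all genes did. With centred values none was higher and 9 were lower, Dkc1, Nhp2, Lyar, Nop16, Nop58, Npm3, Nolc1, Nob1 and Rrs1, where 12.7% and 11.4% of all genes were. On the deposited scale the largest were Utp20 with 0.81 (SE 0.24, limma adjusted p = 0.0099), Polr1c with 0.77 (SE 0.20, adjusted p = 0.00523), Imp4 with 0.60 (SE 0.15, adjusted p = 0.00467), Nop56 with 0.59 (SE 0.14, adjusted p = 0.00203) and Tsr1 with 0.57 (SE 0.11, adjusted p = 0.000409). All 5 kept their calls without any 1 library. The count of 14 was 7 without WT set 3 replicate 2 or WT set 6 replicate 3 and 8 without KO set 3 replicate 3 or WT set 3 replicate 1. These comparisons reuse the set 3 libraries.

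Sets 6 and 5 were close to each other. In KO cells Pno1, a small-subunit factor, rose and Nop56 fell, where 9.93% of all genes rose and 2.03% fell. Pno1 had 11.61, 11.33 and 11.41 in set 6, against 11.12, 11.07 and 11.10 in set 5 (0.36, SE 0.10, limma adjusted p = 0.0376), and 0.26 on the centred scale, where it did not pass (limma adjusted p = 0.138). The Pno1 call was lost without any KO library of set 5 or without KO set 6 replicates 1 or 3, with adjusted p from 0.061 to 0.154, and without KO set 5 replicate 2 there were 4 other rises. Nop56 had 14.40, 14.34 and 14.62 in set 6, against 14.98, 14.99 and 15.09 in set 5 (−0.57, SE 0.10, limma adjusted p = 0.00216). With centred values the fall of Nop56 was the only call, where 3.87% of all genes rose and 3.64% fell. In WT cells none passed, where 3.01% of all genes rose and 0.359% fell, and 4 of the 50 had an unadjusted p under 0.05 by limma. Same-numbered libraries of sets 5 and 6 deviated together within each genotype, so a fit with these pairs as a block is also given. It called 8 rises and 2 falls in KO cells, where 21.6% of all genes rose and 6.15% fell, and 0 rises and 2 falls in WT cells, where 11.1% rose and 2.49% fell. Under it Myc fell in both, by 0.395 in KO cells (SE 0.061, limma adjusted p = 0.00298) and by 0.329 in WT cells (SE 0.061, limma adjusted p = 0.011). The KO effect of set 6 minus that of set 5 gave no call among the 50 and none among all genes (0%), with 4 of the 50 and 1320 of all genes at an unadjusted limma p under 0.05, and the paired fit gave 1 higher and 0 lower, where 2.28% and 1.78% of all genes were. For Nop56 that difference was −0.35 and for Myc −0.07.

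The rest of the pathway was read from lists of related genes. Between KO and WT cells of set 5, 7 of 41 other small-subunit factors rose and none fell on the deposited scale, against 1 and 19 on the centred scale. Of 48 other large-subunit factors 24 rose and 1 fell (5 and 18 centred), and of 13 other RNA polymerase I genes 9 rose and none fell (1 and 1 centred). Of all genes, 50.1% rose and 8.08% fell (24.9% and 24.7% centred). Medians were 0.08, 0.23 and 0.34 in this order, all under the 0.39 of all genes. Zfp622, a late large-subunit factor, rose by 0.97 (SE 0.07, limma adjusted p = 2.8e-08), and Nop53 by 1.08 (SE 0.09, limma adjusted p = 7.48e-08). Rpf2, which helps to place the small rRNA of the large subunit, fell by 0.82 (SE 0.16, limma adjusted p = 0.000322). Ubtf, the factor that opens ribosomal DNA for RNA polymerase I, rose by 0.95 (SE 0.10, limma adjusted p = 7.15e-07; 0.56 centred). Of 22 genes of snoRNP assembly and the exosome, 4 rose and 5 fell (0 and 14 centred). Among these, Ruvbl2, an ATPase of snoRNP assembly, fell by 0.74 (SE 0.16, limma adjusted p = 0.000961) and Naf1, an H/ACA assembly factor, rose by 0.55 on the deposited scale.

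In set 6 the same lists gave 16 rises and no fall for the small subunit (1 and 12 centred), 28 and 1 for the large subunit (4 and 14 centred), 8 and 0 for RNA polymerase I (2 and 3 centred), and 6 and 3 for snoRNP assembly and the exosome (0 and 13 centred), where 53.9% of all genes rose and 4.59% fell (18.8% and 18.5% centred). Zfp622 was again higher, by 0.82 (limma adjusted p = 1.94e-07), Ubtf by 0.91 (limma adjusted p = 1.54e-06), and Rpf2 lower (−0.48, limma adjusted p = 0.0167). In set 3 the 4 lists together held 4 called genes, all lower: Nol7, Nsa2, Senp3 and Xrn2, by 0.21 to 0.29 on the log2 scale. With centred values 1 of them passed. The lists fell with the members between sets 3 and 5. In KO cells 31 of 41 small-subunit and 38 of 48 large-subunit factors fell, and in WT cells 36 and 45 did, where 23.4% and 38.3% of all genes fell.

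The Myc network holds the partners and rivals of Myc, many of which also pair with Max. In set 5, 8 of 13 rose in KO cells and 1 fell (6 and 4 on the centred scale), and in set 6, 9 rose and 1 fell (5 and 3 centred). With 50.1% of all genes higher in set 5 and 53.9% in set 6, the counts of rises are near what all genes gave. Mnt, a repressor that pairs with Max at E boxes, averaged 9.90 ± 0.02 in KO and 8.74 ± 0.20 in WT libraries of set 5 (3 libraries each, ± SD; 1.16, SE 0.10, limma adjusted p = 8.36e-08; 0.77 centred). In set 6 it was 0.98 higher in KO cells (limma adjusted p = 5.69e-07). Mxd4, another Max-bound repressor, averaged 9.19 ± 0.15 in KO and 7.74 ± 0.16 in WT libraries of set 5 (3 libraries each, ± SD), a difference of 1.454, and of 1.201 in set 6 (limma adjusted p = 9.5e-07 and 8.43e-06). Zbtb17 (Miz1), a zinc-finger partner of Myc, rose by 0.83 in set 5 (limma adjusted p = 9.35e-07) and 0.98 in set 6 (limma adjusted p = 3.29e-07).

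Mycn, a close relative of Myc, was higher in KO cells of set 3 and lower in KO cells of sets 5 and 6. It averaged 6.66 ± 0.06 in KO and 5.90 ± 0.38 in WT libraries of set 3, a difference of 0.76 (SE 0.18, limma adjusted p = 0.011). In set 5 it averaged 7.44 ± 0.31 in KO and 8.59 ± 0.08 in WT cells, and in set 6 8.59 ± 0.07 in KO and 9.33 ± 0.13 in WT libraries (3 libraries each, ± SD). It fell in KO cells of both, by 1.16 and 0.74 (limma adjusted p = 3.67e-05 and 0.00192), and by 1.55 in set 5 on the centred scale. The change of its KO effect was −1.91 for set 5 minus set 3 and −1.50 for set 6 minus set 3 (limma adjusted p = 1.59e-05 and 0.000167). Max averaged 12.08 ± 0.20 in KO and 12.73 ± 0.07 in WT libraries of set 3 (3 libraries each, ± SD) and fell by 0.65 there (SE 0.10, limma adjusted p = 0.000521). Mxd3, a further Max-bound repressor, was higher in KO cells of set 3 by 0.81 (limma adjusted p = 0.0153). Fbxw7, a ligase subunit that marks Myc for degradation, averaged 9.28 ± 0.15 in KO and 9.75 ± 0.08 in WT libraries of set 3, and 9.64 ± 0.23 in KO and 8.78 ± 0.08 in WT libraries of set 5. Its difference was −0.47 in set 3 (limma adjusted p = 0.0198), 0.85 in set 5 (limma adjusted p = 1.85e-05) and 0.49 in set 6 (limma adjusted p = 0.00254), and the change from set 3 to set 5 was 1.32 (SE 0.17, limma adjusted p = 1.53e-05; 0.91 centred).

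**Figure D4:**
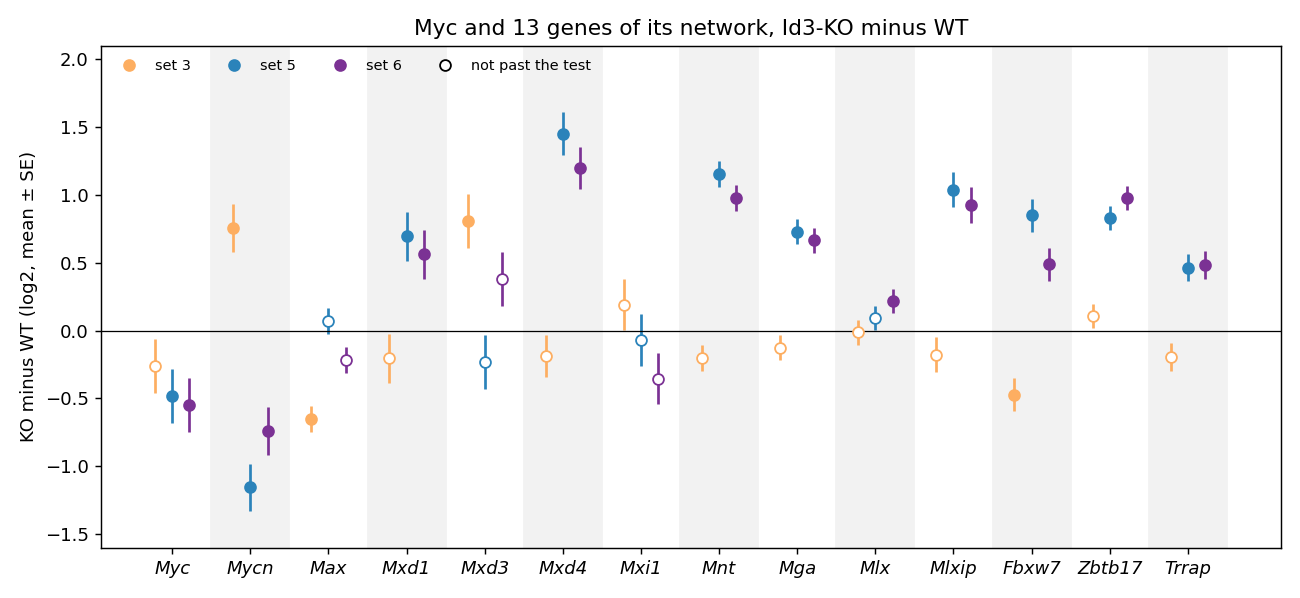
KO minus WT difference (log2, y axis) of Myc and 13 genes of its network in sets 3, 5 and 6, shown by colour. Points are differences of 3 libraries each with SE bars, and filled points passed limma at adjusted p under 0.05. Mycn lies above 0 in set 3 (0.76) and below it in sets 5 and 6 (−1.16 and −0.74), while Mnt, Mxd4 and Zbtb17 lie above 0 in sets 5 and 6.

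Other known Myc targets outside ribosome assembly had lower medians than all genes. In set 5, 19 of 33 fell and 4 rose, where 8.08% and 50.1% of all genes did, with a median of −0.31. In set 6, 7 fell and 7 rose, where 4.59% and 53.9% of all genes did, with a median of −0.12. With centring 27 fell and 1 rose in each. Prmt5, an arginine methyltransferase, fell by 0.71 in set 5 (SE 0.11, limma adjusted p = 3.85e-05) and 0.56 in set 6 (limma adjusted p = 0.000397). Phb, the mitochondrial prohibitin, fell by 0.83 in set 5 (SE 0.15, limma adjusted p = 0.000218). Ccnd2, cyclin D2, rose by 0.79 in set 5 (limma adjusted p = 1.73e-06) and 0.78 in set 6 (limma adjusted p = 2.56e-06). Odc1, the entry enzyme of polyamine synthesis, rose by 0.45 in set 5 (limma adjusted p = 0.00232) and Cdk4 by 0.42 in set 6 (limma adjusted p = 7.4e-05). None of the 33 passed in set 3.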

How the data were processed

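Poly(A)-selected RNA of 18 libraries was sequenced from stranded NEBNext Ultra II Directional libraries, per the labels' protocols. The submitters' processing notes name Salmon 1.9.0, edgeR, limma and GRCm39, without their roles. The main values are deposited by the authors as log2 expression values; sorted from low to high, 97.0 to 98.4% of a group's values were the same in its 3 libraries, so they were equalized within groups, which compresses the spread, and depth per library is unknown. The authors' contrast table gives a log2 fold, a test score (moderated t) and p-values, per the file headers; it was used where named.

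The deposited log2 values of 12547 genes were tested with limma 3.58.1 in R 4.3.3: 6 group means (12 residual degrees of freedom), moderation with a variance trend, and Benjamini-Hochberg adjustment over all genes. A filter on low values (0 or more in 3 libraries) removed no gene. Figures used matplotlib 3.10.9 in Python 3.11.15. The tests were tested on simulated data.

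The members and lists were chosen with earlier results of these data known. Named were Id3, Myc, the 5 largest called rises and falls of each comparison, the member with the smallest adjusted p of each role and the leading called genes of each list; Nop10, Gar1, the other called members, Mxd4, Mxd3, Fbxw7 and the genes beside them were named to account for a count. Likeness to Myc over libraries is not given, since the libraries fall into separate groups.

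Same-numbered libraries correlated at 0.22 to 0.34 between KO sets 5 and 6 and 0.12 to 0.16 between WT sets 5 and 6 in their deviations from group means, above 0.1 in every pair, and were treated as paired there. Other groups did not meet this. Same-numbered WT libraries of sets 3 and 5 correlated at 0.069 to 0.074, against −0.049 to −0.030 for other numbers, but were not treated as paired. Promoters are RefSeq, GRCm38.p6. Alternatives were median centring, quantile normalization, minimum folds, a replicate block, other moderation, compared groups alone, an offset, filters and leaving out each library; 2 were added after seeing the data, the block within genotype and centring with a minimum fold.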

Additional observations from a re-analysis of the deposited data

Results flagged for a closer look

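The KO minus WT difference differed between sets 5 and 3, by an interaction test in limma, for 8 of the genes. It was higher in set 5 for Nop56 (0.943), Polr1c (0.651), Tsr1 (0.549), Imp4 (0.426) and Rrp1b (0.36), and lower for Nop16 (−0.56), Nhp2 (−0.554) and Lyar (−0.486), all on the log2 scale. Nop56, Nop16, Nhp2 and Lyar passed with the same sign on the centred scale.

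Between sets 6 and 3 it was higher in set 6 for Utp20 (0.806), Polr1c (0.774), Imp4 (0.595), Nop56 (0.591) and Tsr1 (0.573), the 5 largest of 14. None of these passed on the centred scale.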

How the results depend on the processing

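The fall of the genes in set 5 relative to set 3 (49 in KO and 50 in WT cells) and the absence of calls in set 3 were kept when any 1 library was left out and under centring. Counts of higher and lower genes elsewhere depended on the scale. KO against WT in set 5 gave 1 and 35 under median centring or quantile normalization, 1 and 4 with a minimum fold of 1.2, and 0 and 0 at a log2 difference of 1 or more. Set 6 gave 0 and 25 under centring, 0 and 26 under quantile normalization, 2 and 0 with the minimum fold, and 0 and 0 at a difference of 1 or more. For set 6 against set 5 in KO cells, the rise was 0 under centring, quantile normalization, no trend and the compared groups alone; both directions were 0 with either minimum; the counts were 3 higher with a replicate block and 8 and 2 with the replicate block within genotype, which also gave 2 lower in WT cells and 1 higher for the KO effect of set 6 minus set 5. The KO effect of set 5 minus set 3 gave 1 and 17 under centring, 1 and 20 under quantile normalization, 2 and 0 with the minimum fold, 0 and 0 at a difference of 1 or more, 1 lower without a trend and 6 lower with the replicate block. That of set 6 minus set 3 gave 0 and 9 under centring and quantile normalization, 3 higher with the minimum fold, 0 higher at a difference of 1 or more, and 1 lower with the replicate block. Centring with a minimum fold gave 1 higher in set 5, 0 higher in set 6, 0 and 0 for set 6 against set 5 in KO cells, 0 and 9 for set 5 minus set 3 and 0 higher for set 6 minus set 3. In KO against WT of sets 5 and 6, where KO libraries have the higher median, centring raises the number of lower calls by its construction. In set 3, where the KO median is slightly lower, the lower calls of all genes went from 4.46% to 3.28%. Other causes were not tested. The block for pairs outside sets 5 and 6, which share only a number, moved no other count by over 1.5 times.

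Leaving out 1 library gave 2 to 5 higher and 8 to 14 lower in set 5, 8 to 13 and 2 to 5 in set 6, 3 to 10 and 1 to 6 for set 5 minus set 3, 7 to 19 and 0 for set 6 minus set 3, and 0 to 4 and 1 for set 6 against set 5 in KO cells. With centring too, lower calls were 30 to 39 in set 5 and 18 to 28 in set 6. Signs turned for Imp4 in set 5 (−0.0799 under centring, −0.0964 under quantile normalization), for the KO effect of set 5 minus set 3 of Rrp1b (−0.0551 and −0.0924) and Imp4 (−0.0338, quantile), and for Nop56 in set 3 (0.00338, quantile). The KO effect of set 6 minus set 5 of Myc, −0.07 with all libraries, ranged over leave-one-out fits from −0.234 (without KO set 6 replicate 2) to 0.176 (without KO set 5 replicate 2), and was 0.0510 without KO set 6 replicate 3, 0.0759 without WT set 5 replicate 1 and 0.00596 without WT set 6 replicate 2. Myc in set 5 lost its call under robust moderation (0.0510), no trend (0.0724), compared groups alone (0.0861) and the minimum fold (0.276). With 3 libraries a group and values equalized within groups, small differences are near the limit of these tests.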
